A study of Mus musculus with 10 samples.

Results

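The pyruvate dehydrogenase complex and its dedicated kinases and phosphatases were examined in the livers of mice fed a high-fat diet with or without ethanol. The set held 10 genes of the 22911 that could be named on the array: the E1 subunits Pdha1 and Pdhb, the E2 subunit Dlat, the E3 subunit Dld, the E3 binding protein Pdhx, the kinases Pdk1, Pdk2 and Pdk4, and the phosphatase catalytic subunits Pdp1 and Pdp2. Their probes were found through RefSeq accessions, and 16 of the 56605 probes measured them. The genes were chosen by their known roles and on the ethanol minus control differences of log2 signal in these same arrays, which were known when the list was drawn up. The group differences of the 10 genes are therefore given as a description, and counts of small p-values among them serve for orientation only.

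The HFD ethanol group and the HFD control group were males of the inbred C57BL/6J strain, bought at 7 weeks of age. After 1 week of settling in, all of them ate a diet with 60% fat for 4 months, so the fat-rich diet was shared by both groups and the comparison holds no lean mice. The HFD ethanol mice also drank ethanol in their water for the last 3 months, at a daily intake of 5 g/kg at first, for a week, and then of 10 g/kg, and the HFD control mice drank none. Of 10 mice in each group, 5 were picked at random for 1-colour Agilent arrays, with 1 liver per array, so each n counts mice.

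Pyruvate dehydrogenase is the mitochondrial enzyme that turns pyruvate, the end product of glycolysis, into acetyl-CoA, which enters the citric acid cycle or leaves the mitochondrion as the building block of fatty acids. E1 is a tetramer of alpha (Pdha1) and beta (Pdhb) chains that removes carbon dioxide from pyruvate with thiamine pyrophosphate, E2 (Dlat) passes the acetyl group to coenzyme A on a lipoyl arm, and E3 (Dld) reoxidises that arm. The kinases switch the complex off by phosphorylating serines of the alpha chain, and the phosphatases switch it on again. In liver, Pdk4 is known for its induction by fasting and by a fat-rich diet, through fatty acid and glucocorticoid signals, and for its repression by insulin.

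Promoter sequences of 9 of the 10 genes were found in RefSeq (GRCm38.p6), in 11 windows that run from 250 bases before the start of a transcript to 50 bases after it. They were searched on both strands for the E-box CACGTG, the CCAAT box CCAAT, the GC box GGGCGG, the NRF-1 half-site TGCGCA, the nuclear receptor half-site AGGTCA, the ERR core AAGGTCA, the PPAR-RXR repeat DR1, which is AGGTCA repeated after any single base, the FoxO core TGTTTAC and the TATA box TATAAA. The ERR core and the PPAR-RXR repeat both contain AGGTCA and overlap with it. The windows of Pdhb and Pdha1 are shown because these genes encode the chains of 1 enzyme while their group differences were unlike, and those of Pdk4 and Pdp2 because their signals varied in opposite directions from mouse to mouse. Each is written 5′ to 3′ on the strand of the gene, which is the minus strand for Pdhb (chr14:8172943-8173242), Pdha1 (chrX:160138381-160138680) and Pdk4 (chr6:5496229-5496528) and the plus strand for Pdp2 (chr8:104591222-104591521). Capitals mark a match of one of the motifs on either strand.
Pdhb: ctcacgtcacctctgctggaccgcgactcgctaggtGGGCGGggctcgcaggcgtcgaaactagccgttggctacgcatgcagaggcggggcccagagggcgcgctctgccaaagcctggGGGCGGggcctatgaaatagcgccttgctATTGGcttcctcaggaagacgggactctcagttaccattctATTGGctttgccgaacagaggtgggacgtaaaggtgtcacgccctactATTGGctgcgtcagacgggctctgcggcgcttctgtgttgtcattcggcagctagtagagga
Pdha1: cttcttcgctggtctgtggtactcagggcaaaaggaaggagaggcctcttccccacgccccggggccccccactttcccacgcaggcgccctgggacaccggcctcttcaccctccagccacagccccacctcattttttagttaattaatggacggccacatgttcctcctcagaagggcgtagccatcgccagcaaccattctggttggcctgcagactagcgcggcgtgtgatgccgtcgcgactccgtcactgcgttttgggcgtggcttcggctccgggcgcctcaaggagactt
Pdk4: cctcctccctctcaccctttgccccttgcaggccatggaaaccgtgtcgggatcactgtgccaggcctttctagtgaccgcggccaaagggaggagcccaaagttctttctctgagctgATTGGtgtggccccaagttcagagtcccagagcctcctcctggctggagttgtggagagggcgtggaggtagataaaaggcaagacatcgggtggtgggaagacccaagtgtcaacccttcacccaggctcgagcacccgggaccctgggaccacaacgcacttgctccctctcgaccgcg
Pdp2: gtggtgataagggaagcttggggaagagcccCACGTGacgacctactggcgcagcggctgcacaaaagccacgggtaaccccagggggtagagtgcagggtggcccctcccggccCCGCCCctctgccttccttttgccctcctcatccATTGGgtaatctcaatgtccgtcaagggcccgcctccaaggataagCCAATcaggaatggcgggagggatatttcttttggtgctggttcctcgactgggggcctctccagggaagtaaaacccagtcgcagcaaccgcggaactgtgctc

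The Pdhb window held 3 CCAAT boxes, each on the opposite strand and so written as ATTGG, and 2 GC boxes. The Pdha1 window held no match of any of the 9 motifs, although its GC content of 62% was close to the 61% of Pdhb and it carried 21 CpG sites, against 24 for Pdhb. A CCAAT box is present in 37.4% of the 32851 RefSeq windows of this length and a GC box in 35.7%, and the median window has a GC content of 52.7% and 7 CpG sites. Pdp2 held 2 CCAAT boxes, 1 GC box and 1 E-box, a motif found in 7.15% of windows. Pdk4 held 1 CCAAT box, and its window had no AGGTCA, no PPAR-RXR repeat and no FoxO core, which occur in 16.3%, 0.0396% and 3.65% of windows. Of the other 5 genes with a window, Pdk2 held 3 CCAAT boxes and 1 E-box, Dld 2 CCAAT boxes and the only NRF-1 half-site of the set, Pdhx 1 CCAAT box and 2 GC boxes, Pdk1 2 GC boxes and Dlat 1 GC box. No window of the 9 genes held a TATA box, which is found in 13.6% of windows. These are matches of letters in a short window, and factor binding was not measured.

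The share of spots above background was 57.2% to 58.9% on ethanol arrays and 55.5% to 59.1% on control arrays, none was saturated, and the small number of arrays limits the precision. All 10 genes had a probe well above background on all 10 arrays. Values are log2 of the processed spot intensity relative to the 75th percentile of the array, called log2 signals here. Since brightness depends on the probe, a log2 signal is compared between mice and never between genes. Differences are ethanol minus control with the standard error of limma, a linear model fitted to 15087 genes with a detected probe. The 6 hepatocyte markers (Alb, Apoa1, Ttr, Serpina1a, Cps1 and Cyp2e1) were above background on all arrays, and of the 6 skeletal muscle markers Ckm, Myh4 and Myh1 were on none, Acta1 on 1, Mylpf on 9 and Tnnt3 on 10 arrays. The arrays lay on 3 slides. Slide 1 held ethanol mouse 4 and control mice 4 and 5, slide 2 held control mice 1 and 3, and slide 3 held ethanol mice 1, 2, 3 and 5 and control mouse 2, so slide and group overlap in part. The column of the array on its slide was 3, 1, 1, 3 and 2 for ethanol mice 1 to 5. It was 4, 2, 3, 4 and 4 for control mice 1 to 5. Column 1 thus held ethanol mice only and column 4 control mice only, so column and group overlap as well.

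Pdhb, the beta chain of E1, was measured by 1 probe and stood apart from every other gene of the set. Its log2 signal was 5.63, 5.71, 6.02, 6.12 and 6.24 in ethanol mice 1 to 5, against 5.01, 4.92, 5.21, 5.29 and 5.08 in control mice 1 to 5. The lowest ethanol mouse lay above the highest control mouse, and no other gene of the set had groups that did not overlap. The means were 5.94 ± 0.27 in ethanol livers and 5.10 ± 0.15 in control livers (SD, n = 5 each), a difference of 0.84 ± 0.13 (SE), or 1.79-fold. Within slide 1, which held 1 ethanol mouse, the difference was 0.94, and within slide 3, which held 1 control mouse, it was 0.98.

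Pdha1, the alpha chain that carries the regulatory serines, had log2 signals of 3.55, 3.60, 3.48, 3.62 and 3.62 in ethanol mice 1 to 5 and of 3.46, 3.36, 3.42, 3.60 and 3.48 in control mice 1 to 5. The groups overlapped, and the mice differed little: the pooled SD within groups was 0.08, and 3.61% of all genes tested had a smaller one. The means were 3.57 ± 0.06 in ethanol livers and 3.46 ± 0.09 in control livers (SD, n = 5 each), which differ by 0.11 ± 0.07 (SE). The products of Pdha1 and Pdhb form 1 enzyme in fixed proportion. The difference Pdhb minus Pdha1, set to 0 at its mean over the 10 mice, lay between 0.07 and 0.62 in ethanol mice and between -0.46 and -0.21 in control mice. It was thus 0.73 higher with ethanol, with groups that did not overlap, as for Pdhb itself. Taken in the same way, Pdhb minus Dlat was 0.63 and Pdhb minus Dld 0.79 higher with ethanol, also with groups that did not overlap. Pdhb minus Pdhx was 0.65 higher, and its groups overlapped.

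The core and E3 subunits had overlapping groups. Dlat, the E2 acetyltransferase, had log2 signals of 0.68, 0.36, 0.01, 0.92 and 1.19 in ethanol mice 1 to 5 and of 0.18, 0.57, 0.55, 0.40 and 0.38 in control mice 1 to 5. The ethanol mice spread on both sides of the control mice, with an SD of 0.46 in ethanol livers and 0.16 in control livers. The difference was 0.22 ± 0.20 (SE), and a second Dlat probe gave 0.25. Dld, which the pyruvate complex shares with the sister complexes for 2-oxoglutarate and branched-chain 2-oxoacids and with glycine cleavage, ran from 2.71 to 3.04 in ethanol livers and from 2.60 to 2.90 in control livers and differed by 0.06 ± 0.09 (SE). Pdhx, which anchors E3 to the core, ran from 0.98 to 1.48 in ethanol livers and from 0.83 to 1.25 in control livers and differed by 0.19 ± 0.12 (SE). Averaged over the 4 subunits other than Pdhb, the difference was 0.14, and the groups overlapped. With Pdhb added the average was 0.28.

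**Figure D1:**
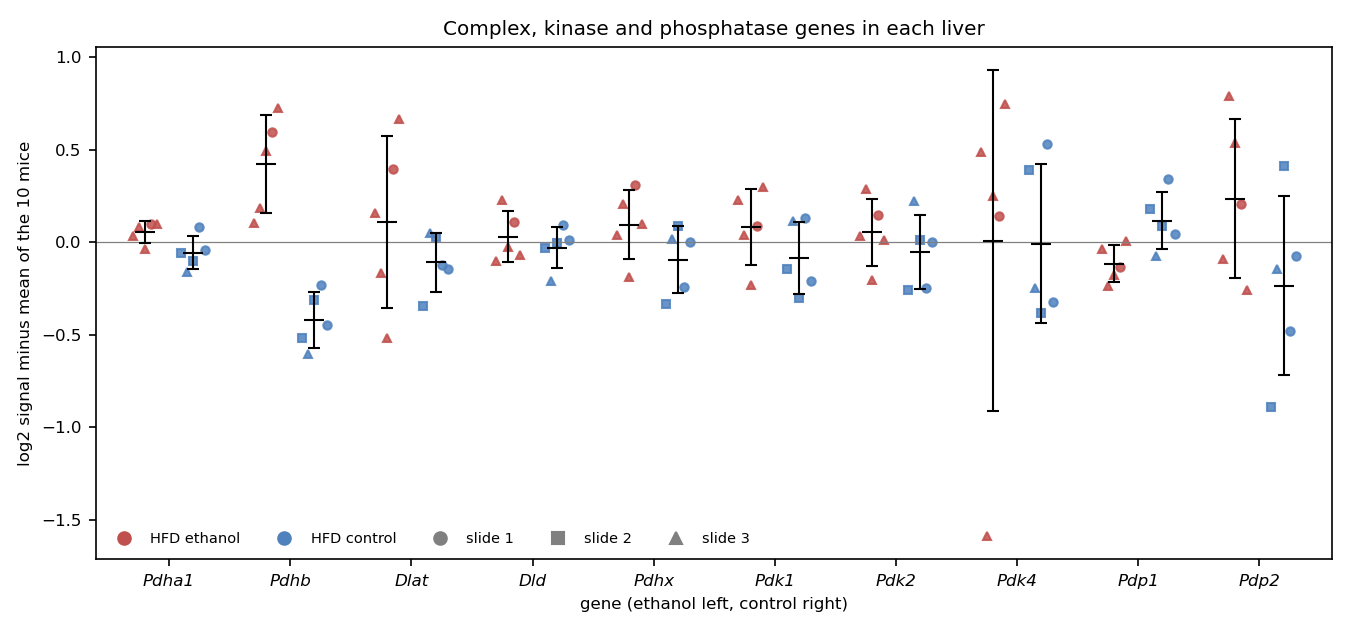
Log2 signal of each gene of the complex minus its mean over the 10 mice (vertical axis), with the 5 HFD ethanol mice left and the 5 HFD control mice right for each gene; marker shapes give the slide, and black bars the group mean ± SD. The 5 ethanol mice lie above the 5 control mice for Pdhb, all other genes overlap, and 1 ethanol mouse lies far below the rest for Pdk4.

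The kinases had overlapping groups as well. Pdk1, a kinase best known as a target of hypoxia signals, ran from 3.51 to 4.03 in ethanol livers and from 3.44 to 3.87 in control livers, with a difference of 0.17 ± 0.12 (SE). Its 3 further probes gave 0.15, 0.20 and 0.31. Pdk2, a widely expressed kinase of the complex, ran from 2.71 to 3.20 in ethanol livers and from 2.66 to 3.13 in control livers, with a difference of 0.11 ± 0.12 (SE). The signs of Pdk1 and Pdk2 turned within slide 3, to -0.03 and -0.19.

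Pdk4, the kinase induced by fasting and fat, had log2 signals of 1.54, -0.53, 1.30, 1.19 and 1.80 in ethanol mice 1 to 5, against 1.44, 0.81, 0.67, 1.58 and 0.73 in control mice 1 to 5. Ethanol mouse 2 was the lowest of all 10, and the other ethanol mice lay within or above the control range. The means were 1.06 ± 0.92 in ethanol livers and 1.05 ± 0.43 in control livers (SD, n = 5 each), a difference of 0.01 ± 0.40 (SE). Without ethanol mouse 2 the difference was 0.41, and its sign turned in 8 of 23 other settings of the analysis. Pdk4 varied more between mice of 1 group than most genes: its pooled SD of 0.72 was larger than that of 96.5% of all genes tested, whose median was 0.20. Without ethanol mouse 2 the pooled SD of Pdk4 was 0.37, larger than that of 80.8% of genes. The data therefore leave a wide range for its group difference.

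Both phosphatase genes were measured, and their differences had opposite signs. Pdp1 had log2 signals of -3.06, -3.25, -3.20, -3.15 and -3.01 in ethanol mice 1 to 5 and of -2.84, -3.09, -2.93, -2.68 and -2.98 in control mice 1 to 5. Ethanol mouse 5 and ethanol mouse 1 lay inside the control range, and the other ethanol mice lay below it. The difference was -0.23 ± 0.09 (SE), or 0.852-fold, and it shrank to -0.04 within slide 3. A second Pdp1 probe was above background on 0 ethanol arrays and 1 control array and was not used.

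Pdp2 had log2 signals of 6.69, 7.57, 7.31, 6.99 and 6.52 in ethanol mice 1 to 5, against 5.89, 6.64, 7.19, 6.30 and 6.71 in control mice 1 to 5. Ethanol mice 2 and 3 lay above every control mouse, and the other ethanol mice lay within the control range. The difference was 0.47 ± 0.26 (SE), or 1.39-fold, but a second Pdp2 probe gave 0.04 ± 0.14 (SE). The probes followed each other closely from mouse to mouse (r = 0.94 over the 10 mice, within groups), and the size of their swings differed.

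Across the set, 9 of 10 genes had a difference above 0, against 56.4% of all genes tested, and the median difference was 0.14, against 0.03 over all genes. In limma 0 of the 10 passed an adjusted p of 0.05, where 0.0199% of all genes did, and 2 of 10 (Pdhb and Pdp1) had an unadjusted p under 0.05, where 13.3% of all genes did. For 1 of the 10 the groups did not overlap, where this held for 3.05% of all genes. These counts come from the contrast with which the list was drawn up and are given for orientation only. Across 23 other settings Pdhb stayed between 0.69 and 0.98, Pdp1 between -0.33 and -0.04 and Pdp2 between 0.08 and 0.63. The lowest Pdp2 value came with the column of the array on its slide as a covariate. No setting used the second Pdp2 probe alone, whose difference of 0.04 lies below this range.

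**Figure D2:**
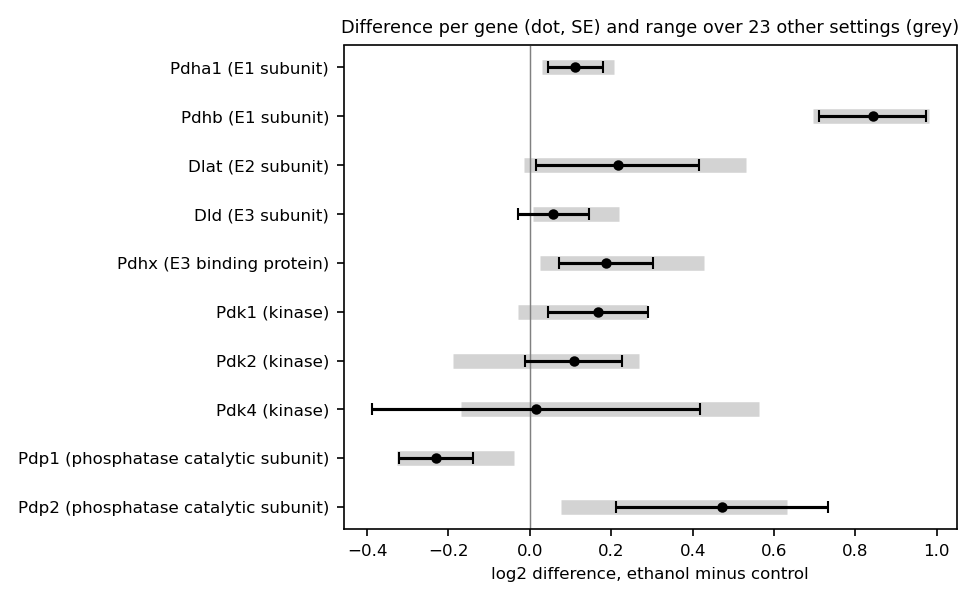
Log2 difference, ethanol minus control, for each gene of the complex (dots, with bars of ± 1 SE), and the range of the same difference over 23 other settings of the analysis (grey). Pdhb lies at 0.84 with a range from 0.69 to 0.98, Pdp1 is below 0 in all settings, and the grey ranges of Dlat, Pdk1, Pdk2 and Pdk4 cross 0.

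Because the mice of a group differed in Pdk4 and Pdp2, relations between genes were examined within the groups. Each value was taken as a deviation from the mean of its group, which removes the group difference, and mice were exchanged within groups in an exact two-sided permutation test. These relations were chosen after the group values had been seen. For Spearman's rho the mice were ranked within each group separately, and the ranks of both groups were then correlated together. Of 45 pairs within the set, 2 had an adjusted p (Benjamini-Hochberg over the pairs) under 0.05 by Pearson's r, and none did by this rho.

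Within the groups, mice with more Pdk4 signal tended to have less Pdp2 signal, the one a kinase that inactivates the complex and the other a phosphatase that activates it. Whether the Pdp2 probe used measures only Pdp2 is not known here. Over the 10 mice r was -0.77 (exact permutation p = 0.00153, adjusted p = 0.0422) and rho was -0.90 (exact p = 0.00431, adjusted p = 0.194). Ethanol mouse 2, the lowest in Pdk4, was the highest in Pdp2 of its group, and ethanol mouse 5, the highest in Pdk4, was the lowest in Pdp2 of its group. Without the mice farthest from the median of Pdk4, 2 in number, r was -0.71, and the second Pdp2 probe gave r = -0.84 with Pdk4. With 1 mouse left out at a time r stayed between -0.84 and -0.73, but the adjusted p was under 0.05 only without ethanol mouse 3. With quantile normalization r was -0.78 and the adjusted exact permutation p was 0.0688.

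Pdp1, the other phosphatase, went the opposite way and was higher in mice with more Pdk4. Its r with Pdk4 was 0.70 (exact permutation p = 0.00188, adjusted p = 0.0422) and its rho was 0.75 (exact p = 0.0336, adjusted p = 0.252). Without the 2 mice farthest from the median of Pdk4, r was 0.85. With 1 mouse left out at a time r lay between 0.65 and 0.85, and here too the adjusted p was under 0.05 only without ethanol mouse 3. The Pdp1 signal was low on every array, at log2 signals from -3.25 to -2.68 relative to the 75th percentile. Its r was 0.56 with quantile normalization, and it was 0.14 with normexp background correction and quantile normalization together. The largest r of the set, 0.86 between Pdhx and Pdk2, had an adjusted p of 0.0885 in the exact permutation test.

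Pdk4 was then set against 15 genes that encode factors acting on its promoter or other targets of fasting, insulin and fatty acid signals. In the exact permutation test 3 of these had an adjusted p under 0.05 by r over the 15 and by rho as well. Of the 15077 tested genes outside the set, 222 had r above 0.8 with Pdk4, and the permutation test was not run over all of them. The share of all genes that would be called is therefore not known. Genes with a negative r of that size were not counted. Igfbp1, a liver hormone-binding protein that insulin represses, followed Pdk4 with r = 0.81 (exact permutation p = 0.000764, adjusted p = 0.0115) and rho = 0.80 (adjusted exact permutation p = 0.0479). Its log2 signal was 4.03, 2.30, 3.55, 2.42 and 4.29 in ethanol mice 1 to 5 and 3.74, 2.49, 2.69, 3.52 and 2.74 in control mice 1 to 5. In the control group the mice with high Pdk4, 1 and 4, were also those with high Igfbp1, and in the ethanol group mouse 4 had low Igfbp1 beside a Pdk4 near the group mean. Without the 2 mice farthest from the median of Pdk4, r was 0.81. The adjusted p exceeded 0.05 without ethanol mouse 1 (r = 0.79, adjusted exact permutation p = 0.189) and without ethanol mouse 5 (r = 0.76, adjusted exact permutation p = 0.0781).

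The genes of Foxo1, the insulin-restrained forkhead factor, and of Nr3c1, the glucocorticoid receptor, both of which are known to act on Pdk4, ran the other way. Nr3c1 had r = -0.82 with Pdk4 (exact permutation p = 0.00201, adjusted p = 0.0151), rho = -0.90 (adjusted exact permutation p = 0.0161), and r = -0.73 without the 2 farthest mice. Foxo1 had r = -0.73 (exact permutation p = 0.00451, adjusted p = 0.0226), rho = -0.85 (adjusted exact permutation p = 0.0279), and r = -0.79 without the 2 farthest mice. Their swings were small beside those of Pdk4: Foxo1 ran from 2.27 to 2.73 in ethanol livers and from 2.18 to 2.80 in control livers, and Nr3c1 from 3.35 to 3.81 in ethanol livers and from 3.47 to 3.74 in control livers. The call for Nr3c1 was lost without ethanol mouse 1 (r = -0.82, adjusted p = 0.189 by exact permutation), 2 (-0.77, 0.0508) or 5 (-0.78, 0.181). That for Foxo1 held in 4 of 10 such fits, with r between -0.87 and -0.68, and was lost without ethanol mouse 1, 2 or 5 or control mouse 2, 3 or 5 (adjusted p between 0.066 and 0.0781 by exact permutation).

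Of the other targets, Plin2, which coats lipid droplets, the receptor Ppard and the fasting hormone Fgf21, each had rho = 0.95 with Pdk4 (adjusted exact permutation p = 0.00625). Their r values of 0.66, 0.62 and 0.70 had adjusted p-values of 0.16, 0.248 and 0.411 by exact permutation. Ppara had r = -0.56 and rho = -0.15, and Cpt1a, a rate-limiting enzyme of fatty acid oxidation, had r = -0.10. Other targets in the list did not follow Pdk4 as Igfbp1 did. G6pc had r = 0.43 and rho = 0, Irs2 r = 0.05 and rho = 0.35, and Angptl4 r = -0.40 and rho = -0.45. Among the 15 genes, 6 had r above 0. Igfbp1, Nr3c1, Ppard, Fgf21 and Irs2 are named here after their values were seen. Of the 13 genes of pyruvate supply and other fates, 0 followed Pdhb within groups, with a smallest unadjusted exact permutation p of 0.203 by r and 0.192 by rho and 0 under 0.05. The slides hold too few mice for a correlation within each. With the slide taken out as a block the r values with Pdk4 were -0.77 for Pdp2, 0.70 for Pdp1, 0.87 for Igfbp1, -0.85 for Nr3c1 and -0.77 for Foxo1. The relations were not recomputed with the column of the array on its slide taken out. With that column as a covariate the group difference was 0.56 for Pdk4 and 0.08 for Pdp2.

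**Figure D3:**
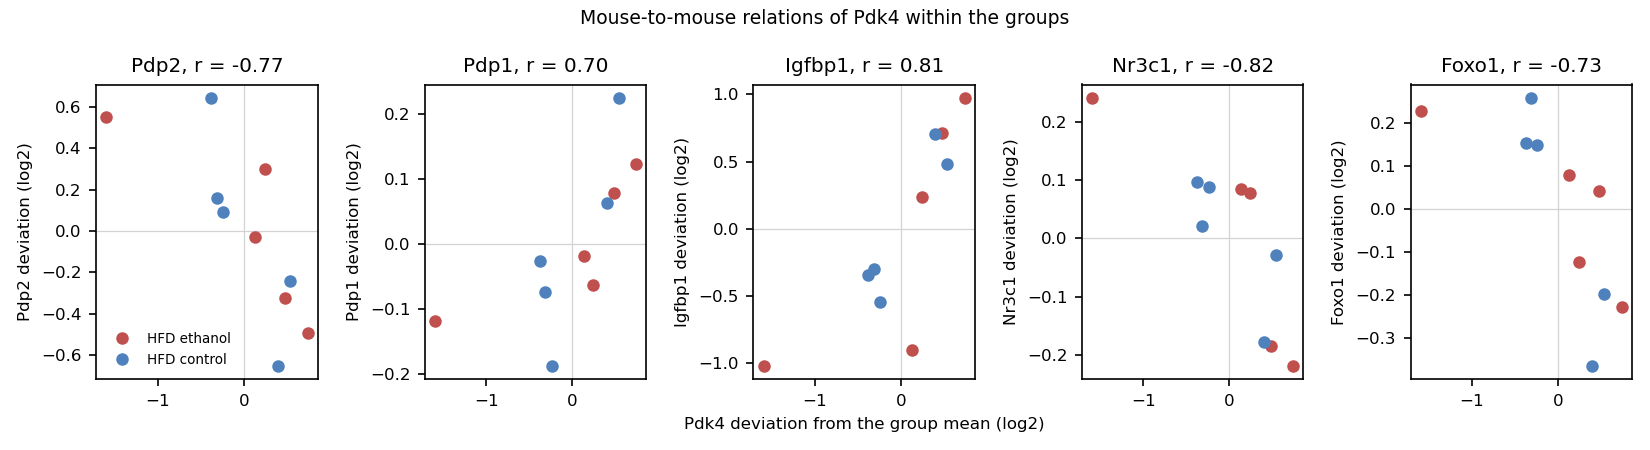
Deviation of each mouse from the mean of its group for Pdk4 (horizontal axis, log2) against the same for Pdp2, Pdp1, Igfbp1, Nr3c1 and Foxo1 (vertical axes, log2), with ethanol and control mice in separate colours. The points fall to the right for Pdp2 (r = -0.77), Nr3c1 (-0.82) and Foxo1 (-0.73) and climb for Pdp1 (0.70) and Igfbp1 (0.81), and the ethanol mouse far left is replicate 2.

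The genes whose pattern over the 10 mice was most like that of Pdk4, again within groups, were Nt5c (r = 0.97), 4930579K19Rik (0.96), Ephb2 (0.94), Vasp (0.94) and Mmp14 (0.93). They were taken from 15077 genes, of which 222 had r above 0.8. The patterns most like the mean of the 5 subunits were those of Aar2 (0.95), Cd3g (0.93), Gcat (0.91), Fntb (0.90) and Macir (0.90), with 55 genes above 0.8. With 10 mice and this many genes such values are a description only.

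Genes around the complex were examined as 5 lists, and none of their genes passed an adjusted p of 0.05 in limma in either direction. Lipoate and thiamine supply make the cofactors of E2 and E1. Of 11 such genes 10 were tested, 7 with a difference above 0 and 3 below, with a median of 0.04 and 2 genes at an unadjusted p under 0.05. Over all genes tested 56.4% lay above 0, with a median of 0.03, 13.3% had an unadjusted p under 0.05 and 3.05% had groups that did not overlap. Glrx5, a mitochondrial glutaredoxin of iron-sulfur cluster assembly, on which lipoate synthesis depends, ran from 5.45 to 5.76 in ethanol livers and from 5.10 to 5.41 in control livers. Its groups did not overlap, and the difference was 0.37 ± 0.08 (SE), with an adjusted p of 0.182 in limma. Nfu1, a carrier of iron-sulfur clusters to lipoate synthase, had 0.10 ± 0.08 (SE), and Lias, that synthase, had 0.01.

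The sister 2-oxoacid dehydrogenases and the glycine cleavage system, which share Dld or the same lipoyl chemistry, gave 7 genes above 0 and 4 below of 11 tested, with a median of 0.07 and 1 gene at an unadjusted p under 0.05, beside 56.4% and 13.3% of all genes. That gene was Bckdk, the kinase that inactivates the branched-chain complex as the Pdk kinases do the pyruvate complex. Its log2 signal was 0.60, 0.41, 0.37, 0.52 and 0.60 in ethanol mice 1 to 5 and lay between 0.26 and 0.28 in all 5 control mice, so the groups did not overlap, as in 3.05% of all genes. The difference was 0.23 ± 0.07 (SE, adjusted p = 0.241 in limma). Bckdha, the E1 alpha chain of that complex, had 0.12 ± 0.08 (SE), and Ppm1k, its phosphatase, had 0.12 ± 0.09 (SE).

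Genes of pyruvate supply and of its other fates gave 7 above 0 and 6 below of 13 tested, with a median of 0.01 and 3 genes at an unadjusted p under 0.05, beside 56.4% and 13.3% of all genes. Pklr, the liver pyruvate kinase that makes pyruvate in the last step of glycolysis, had log2 signals of 1.86, 1.27, 1.67, 1.28 and 2.07 in ethanol mice 1 to 5 and of 0.86, 0.34, 0.31, 0.96 and 0.54 in control mice 1 to 5. The groups did not overlap, as in 3.05% of all genes, and the difference was 1.03 ± 0.19 (SE), or 2.04-fold, with an adjusted p of 0.159 in limma. Me1, the cytosolic malic enzyme, which makes pyruvate and NADPH, ran from 5.06 to 6.46 in ethanol livers and from 4.22 to 5.17 in control livers, with a difference of 0.99 ± 0.27 (SE, adjusted p = 0.216 in limma). The groups of Me1 overlapped through 1 control mouse.

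The mitochondrial pyruvate carrier has the subunits Mpc1 and Mpc2. Mpc2 differed by 0.19 ± 0.08 (SE, adjusted p = 0.342 in limma) and Mpc1 by -0.03 ± 0.12 (SE). Pcx, the carboxylase that competes with the complex for mitochondrial pyruvate, averaged 6.84 ± 0.11 in ethanol livers and 6.83 ± 0.11 in control livers (SD, n = 5 each), a difference of 0.01 ± 0.08 (SE). Ldha, which interconverts pyruvate and lactate, differed by 0.13 ± 0.08 (SE).

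The factors and fellow targets of Pdk4 gave 8 genes above 0 and 7 below of 15 tested, with a median of 0.02 and 3 genes at an unadjusted p under 0.05, beside 56.4% and 13.3% of all genes. G6pc, the catalytic subunit of glucose-6-phosphatase, had log2 signals of 4.33, 4.64, 5.89, 5.06 and 7.32 in ethanol mice 1 to 5 and of 3.89, 4.00, 4.58, 4.48 and 4.03 in control mice 1 to 5. Ethanol mouse 5 was the highest, ethanol mouse 1 lay within the control range, and the difference was 1.25 ± 0.49 (SE, adjusted p = 0.328 in limma). Plin2 differed by 0.39 ± 0.17 (SE). The PPARalpha target Angptl4 had 0.33 ± 0.20 (SE) and Cpt1a -0.03 ± 0.13 (SE). The regulators themselves had -0.08 ± 0.12 (SE) for Ppara, -0.04 ± 0.14 (SE) for Foxo1 and -0.19 ± 0.15 (SE) for Ppargc1a.

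Of the further regulators, Pdpr, the regulatory subunit of the phosphatase, had 0.13 ± 0.10 (SE), and Pdk3 and the testis form Pdha2 had no probe that passed the filter on dim probes. The nearest tested genes on either side of Pdhb on chromosome 14 in RefSeq order were Rpp14, Pxk, Kctd6 and Acox2, whose differences were 0.12, -0.16, -0.02 and -0.17 in limma, and the groups of each of them overlapped. Of 40 markers of other cell types 27 were detected well enough for the limma fit. Of these 0 passed, where 0.0199% of all genes did, and 8 had an unadjusted p under 0.05, where 13.3% of all genes did. All 5 stellate cell markers had differences below 0, from -1.90 for Col1a1 to -0.27 for Lrat, and their summed signal, which brighter probes dominate, ran from 16477 to 24068 in ethanol livers and from 23144 to 30346 in control livers. Of the 4 bile duct markers, the 2 that were tested were below 0 as well, with -0.39 for Krt19 and -0.66 for Sox9. Krt7 and Epcam were also below 0 but too dim to be tested. Krt7 was above background on 0 ethanol and 2 control arrays, and Epcam on 1 and 3. The summed signal of all 4 ran from 139 to 227 in ethanol livers and from 187 to 389 in control livers. In whole liver RNA fewer cells of a type and less RNA per cell cannot be told apart, and the part of cell makeup in the differences above was not tested.

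**Figure D4:**
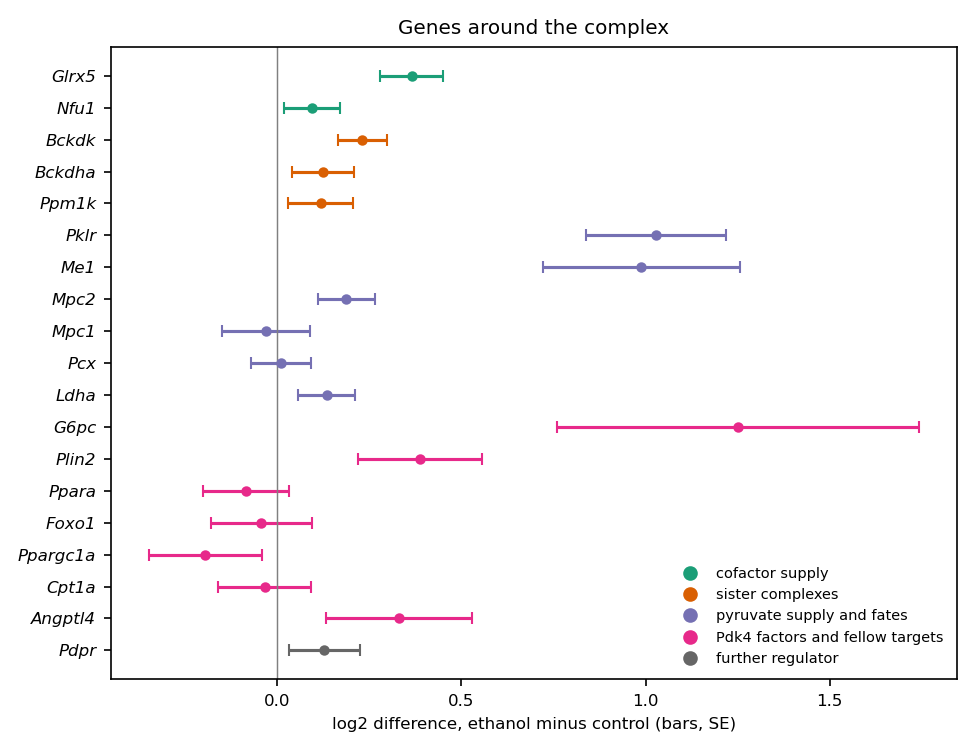
Log2 difference, ethanol minus control, for genes named around the complex (dots, with bars of ± 1 SE), coloured by list. G6pc (1.25), Pklr (1.03) and Me1 (0.99) lie farthest to the right, Mpc2 (0.19) and Ldha (0.13) lie somewhat above 0 and Mpc1 and Pcx at it, and Ppargc1a (-0.19) lies farthest to the left of those shown.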

How the data were processed

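Liver RNA of 10 mice was hybridised to 10 arrays of 1 colour, 5 per group, grouped by the labels. The authors deposited 1 scanner table per array with spot intensity on a linear scale, made with Agilent Feature Extraction 10.7.3.1 on an array designed on mm9, per the file headers. The processed intensity is background-subtracted. The authors also deposited a table of log2 values. Its differences between arrays follow those of the scanner values scaled to the 75th percentile (r = 1 on every array, from 9108 bright probes), apart from a constant per array of -0.018 to 0.021, so scale and direction are settled and the centring value of each probe stays unknown. Its column medians were 0.02, -0.0036, -0.01, -0.0020 and 0.05 for ethanol replicates 1 to 5 and -0.12, 0.08, 0.02, -0.07 and -0.07 for control replicates 1 to 5.

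After removal of control and outlier spots, each processed intensity was scaled to the 75th percentile of its array, with a floor of 4 signal units, log2 was taken, and spots of 1 probe were averaged. The 75th percentile ran from 298.0 to 347.6 in ethanol arrays and from 279.9 to 387.4 in control arrays. Probes well above background on at least 4 of 5 arrays of 1 group were kept (31108 of 56605). Names came from RefSeq (GRCm38.p6) through accessions, which named 32994 probes with 1 symbol and left 23611 unnamed here, and the brightest kept probe stood for a gene. No pair of arrays looked like a repeat of 1 sample, since the smallest root mean square difference of 45 pairs was 0.301 on the log2 scale.

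The comparison used limma (version 3.58.1, R 4.3.3) over 15087 genes with Benjamini-Hochberg adjustment, tested on simulated data beforehand. The genes of the complex and the lists around it were chosen with earlier results of these data known. Named genes were all 10 of the complex, the 3 with the smallest p of each list plus a few central ones of pyruvate metabolism and Pdk4 control, and the 5 most alike in pattern, of which 2 list genes are not reported here. The alternatives were other normalizations, background corrections, floors, filters and probe rules, the deposited values, slide and array column, a replicate block and leaving out each array. Normexp used the median spot signal, as the mean was not used here. The relations between mice and their alternatives were chosen after seeing the data.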

Additional observations from a re-analysis of the deposited data

Results flagged for a closer look

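In 76 groups of 5 mice, each gene or further probe taken separately, the lowest and the highest mouse were examined for a gap to the nearest other mouse of more than 0.71 of the range of the group. Chance marks about 1 in 20 groups, and 4 of 76 were marked. Pdk4 was marked in ethanol livers, where replicate 2 had a log2 signal of -0.53 and the next mouse 1.19. A further probe of Pdk1 was marked in control livers through replicate 2, the highest at -2.30. Pcx, the pyruvate carboxylase, was marked in ethanol livers through replicate 3, the lowest at 6.64. Ldha, a lactate dehydrogenase, was marked in control livers through replicate 4, the highest at 8.66.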

How the results depend on the processing

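Pdhb kept a positive difference in all 23 other settings, between 0.69 and 0.98, and Pdp1 a negative one. Differences that moved by more than the spread between mice were Pdha1 with normexp on median signals and quantile normalization together, called normexp here (0.030) and within slide 3 (0.21), Pdhx within slide 1 (0.43), and Dld (0.22), Pdk2 (-0.19) and Pdp1 (-0.039) within slide 3, which holds 1 control mouse. The cause was not tested. The count of all genes past the threshold, 3 in the main setting, was 8 with normexp, 12 with the slide as a random block and 12 within slide 3. It was 0 without the filter (2404 at an unadjusted p under 0.05 in limma), with the slide as a fixed block (806), within slide 1 (2176), with the slide column as a covariate (867) and with the replicate block (2442), and 0 to 7 with 1 array left out. The replicate numbers were not taken to pair the mice, since deviations of same-numbered mice correlated at 0.32, 0.15, 0.31, 0.06 and -0.11 and not every mouse was closest to its own number. With the replicate block Pdhb stayed at 0.84. The likeness of Pdk4 and Nt5c was 0.93 with quantile normalization, 0.89 with normexp and 0.88 to 0.98 with 1 array left out, and that of the subunits and Aar2 was 0.89 with normexp, 0.93 with the slide as a block and 0.94 to 0.96. The relation of Pdk4 with Pdp1 was not past the threshold with quantile normalization (0.56) or normexp (0.14), and that with Pdp2 with quantile normalization (-0.78, adjusted exact permutation p = 0.0688) or normexp (-0.78, adjusted exact permutation p = 0.0969). That with Nr3c1 missed it with the mean of its probes (-0.71), and that with Igfbp1 was 0.87 with the slide as a block. With 1 mouse left out these relations ran from 0.65 to 0.85 (Pdp1), -0.84 to -0.73 (Pdp2), -0.87 to -0.68 (Foxo1), -0.87 to -0.77 (Nr3c1) and 0.76 to 0.95 (Igfbp1). Leaving out a mouse also leaves fewer permutations.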
